A study of Arabidopsis thaliana with 72 samples.

Results

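Glutathione transferases (GSTs) form a large enzyme superfamily in Arabidopsis thaliana, and the genes of the tau, phi, lambda, zeta and theta classes, TCHQD and the dehydroascorbate reductases (DHAR) are described here. The genes were taken by a list of locus identifiers, with no cut on measured values, though earlier results of these data were known when the list was made. The list holds 53 loci: 28 of tau, 13 of phi, 3 of lambda, 2 of zeta, 3 of theta, TCHQD and 3 of DHAR. Of the 53, 52 have a row in the deposited table of 22122 loci, and GSTU15 has none.

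Enzymes of the tau and phi classes join the tripeptide glutathione to reactive, electron-poor molecules such as herbicides, lipid breakdown products and plant defence compounds, and the conjugates are moved into the vacuole. Some phi and tau proteins mainly bind and carry small molecules such as flavonoids. Lambda proteins and DHARs have a cysteine in the active site and act as thiol transferases or reduce dehydroascorbate. The zeta enzyme takes part in tyrosine breakdown, and theta enzymes reduce organic peroxides.

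The study asked how seedlings respond to citral, a plant terpenoid made of a pair of unsaturated aldehydes. RNA was sequenced from roots and shoots of plants grown on agar for 14 days, which per the protocol were treated 7 h into a photoperiod of 16 h light and 8 h dark. The groups are citral (202 µM per the series design) for 1, 3, 6, 12 and 24 h, ethanol at 0.1%, the solvent, at the same times and also at 0 h, and untreated plants at 0 h. Each of these 12 groups exists for both organs with 3 libraries, 72 libraries in 24 groups. The labels' treatment protocol names t-chalcone at 21 µM, whereas the agent labels, the design and the title name citral, and the agent labels were followed. The labels name no accession, mutation or transgene. Whether the 3 libraries of a group stem from different plates is not recorded, and their spread, on which the p-values rest, could be technical.

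The deposited values were turned back into reads. Depth was 1.58 to 3.59 M reads with citral (30 libraries, median 3.43) and had a median of 11.4 M in the 42 controls, so depth and treatment cannot be told apart. Of the controls, 4 held under 0.5 M: root ethanol replicate 1 at 0 h, root ethanol replicate 1 at 3 h, shoot ethanol replicate 2 at 12 h and shoot ethanol replicate 3 at 24 h. The library of shoot ethanol replicate 2 at 12 h stood apart most, with 73.9% of loci at the lowest value of the table. Levels are reads per M (CPM), and means ± SD leave out these 4 libraries. Changes are log2 ratios ± SE of citral over ethanol from limma, scaled by trimmed means (TMM). They can differ from ratios of CPM, and small differences can differ in direction. A gene is called higher or lower at a Benjamini-Hochberg adjusted p under 0.05 over all tested loci, 20167 in roots and 19545 in shoots. Of the GST genes, 51 passed the filter on low values in roots and 46 in shoots. GSTF5 passed in neither organ, and GSTU12, GSTU14, GSTU21, GSTF13 and GSTZ2 did not in shoots. GSTU3 in both organs and GSTF12 in roots passed only through citral libraries. In bulk samples fewer cells of a type and less RNA per cell cannot be told apart. The organ labels were checked with markers: RBCS1A, the Rubisco small subunit, lay at 16.4 to 152 CPM in root libraries and 2754 to 11383 CPM in shoot libraries, and CASP1, of the root endodermis, at 35.6 to 203 CPM in roots and 0.141 to 5.21 CPM in shoots.

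The upstream sequences below belong to genes on which the results turn: GSTU25 and GSTU26 are tandem neighbours that moved in opposite directions with citral, and GSTU1 and GSTU7 rose at each time in both organs. Each is the 250 bases before the annotated start in RefSeq's TAIR10.1, given 5′ to 3′ on the gene's strand, with the capitals marking TGACG or its reverse complement CGTCA, the core of the as-1 element that TGA transcription factors bind. GSTU25 is on the plus strand (chr1:5871774-5872023) and GSTU26 as well (chr1:5875045-5875294). GSTU1 (chr2:12632539-12632788) and GSTU7 (chr2:12618900-12619149) are on the minus strand, and part of the GSTU7 window is also annotated as a non-coding transcript.
GSTU25: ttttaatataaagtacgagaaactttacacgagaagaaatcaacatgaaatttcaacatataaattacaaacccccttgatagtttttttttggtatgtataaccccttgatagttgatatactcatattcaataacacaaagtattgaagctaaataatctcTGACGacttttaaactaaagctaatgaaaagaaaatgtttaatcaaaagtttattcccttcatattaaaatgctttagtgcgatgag
GSTU26: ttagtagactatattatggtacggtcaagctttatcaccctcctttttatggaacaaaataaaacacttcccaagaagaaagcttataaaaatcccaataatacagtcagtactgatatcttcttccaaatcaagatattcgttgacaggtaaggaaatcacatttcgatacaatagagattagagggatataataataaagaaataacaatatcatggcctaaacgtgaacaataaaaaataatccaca
GSTU1: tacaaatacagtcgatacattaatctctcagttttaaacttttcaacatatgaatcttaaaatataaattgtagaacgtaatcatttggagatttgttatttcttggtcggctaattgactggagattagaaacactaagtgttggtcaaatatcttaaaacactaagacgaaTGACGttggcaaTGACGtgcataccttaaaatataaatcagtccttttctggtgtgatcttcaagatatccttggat
GSTU7: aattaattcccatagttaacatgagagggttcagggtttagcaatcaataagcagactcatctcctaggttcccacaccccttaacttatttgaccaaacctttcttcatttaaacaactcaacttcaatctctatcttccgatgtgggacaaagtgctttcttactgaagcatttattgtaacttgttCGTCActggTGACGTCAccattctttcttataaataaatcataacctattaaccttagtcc
The window of GSTU25 holds the motif 1 time, that of GSTU26 0 times, that of GSTU1 2 times and that of GSTU7 3 times. In GSTU7 the last pair of matches overlaps in a palindrome. In all, 14 genes rose at each time in both organs, and 7 of them hold the motif in these 250 bases. Of the other 39 GST genes 10 hold it. Among the 14, only GSTU1 and GSTU7 hold it more than 1 time, so they are not typical. GSTU9, which was called in both directions, also holds it 2 times.

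Over windows of 300 bases (250 before to 50 after the start), TGACG or CGTCA occurred in 21 of the 53 GST genes (39.6%) and in 6330 of 27443 genes (23.1%). The G-box CACGTG, which reads the same on both strands, occurred in 7 GST genes (13.2%) and 7.68% of all genes. The auxin element TGTCTC or GAGACA occurred in 3 GST genes (5.66%) and 14.2% of all genes. A match is a description of the letters in the window, not a binding site.

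Without treatment most GST genes stood higher in roots than in shoots. Of 51 tested, 34 were higher in roots and 14 lower, beside 41.7% and 35.8% of all loci, with a median root minus shoot difference of 1.98 on the log2 scale and 0.09 over all loci. Scaling to total reads alone moved the median of all loci to 0.61, and the counts to 37 and 9. The tau class had 20 of 27 genes higher in roots and 5 lower, and phi 9 of 12 higher and 2 lower. GSTU12, GSTU14, GSTU21, GSTF13 and GSTZ2 entered these counts only through root libraries. Their higher root level thus does not stand apart from the filter. Of the 46 genes tested in both organs, 32 had the higher level in roots and 14 the lower, called or not. Of 18672 such loci, 9844 had the higher level in roots and 8828 the lower. With TMM the 3 theta genes and TCHQD were lower in roots, by 0.25 to 0.60 on the log2 scale. By CPM, which carry no TMM scaling, the theta genes summed to 118 ± 1.72 in roots and 108 ± 7.41 in shoots. TCHQD had 10.5 ± 0.714 CPM in roots and 10.9 ± 1.36 CPM in shoots. The direction for theta thus depends on the scaling.

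Several genes differed between the organs by a wide margin. GSTL1 (AT5G02780), a lambda thiol transferase, had 43.8, 55.3 and 45.1 CPM in untreated roots against 0.0656, 0.351 and 0.144 CPM in untreated shoots, where 1 library was at the floor of the table. GSTU25 had 204, 286 and 239 CPM in roots against 0.926, 1.12 and 1.39 CPM in shoots, and GSTF14 had 279.5, 319.8 and 305 CPM in roots against 1.54, 2.18 and 1.49 CPM in shoots. These 3 genes lay 7.42, 7.07 and 6.96 higher in roots on the log2 scale. The opposite held for GSTF12 (AT5G17220, TRANSPARENT TESTA 19), which is needed to bring anthocyanins into the vacuole. It had 0.323, 0.253 and 0.051 CPM in roots, with 1 library at the floor, against 8.65, 25.6 and 8.97 CPM in shoots. GSTU20, which interacts with the jasmonate-conjugating enzyme FIN219, had 121, 154 and 110.4 CPM in roots against 572, 686 and 632 CPM in shoots. The plastid enzyme DHAR3 had 18.6, 18.4 and 19.2 CPM in roots against 133, 141 and 136 CPM in shoots. The root and shoot libraries did not overlap for any of these 6 genes, as for 84.8% of all loci.

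Levels of different genes were ordered per kb of exon. In untreated roots GSTF9 stood highest at 1075 ± 74.6 CPM per kb, next to GSTU19 at 1012 ± 36.9 (SD, n = 3), and these neighbours differed by less than their spread. DHAR1, a cytosolic dehydroascorbate reductase, followed with 669 ± 58.8 and GSTF10 with 457 ± 10.8 CPM per kb. In untreated shoots the order began with GSTU20 at 549 ± 49.7 CPM per kb, GSTF9 at 462 ± 15.0, DHAR1 at 379 ± 43.5 and GSTU19 at 350 ± 27.6, and the last pair overlapped within 1 SD.

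With citral the family took up a larger part of all reads. In roots the 52 genes summed to 1.83 ± 0.0935% of reads after 1 h of citral against 0.722 ± 0.0289% with ethanol, and to 2.10 ± 0.105% against 0.794 ± 0.00634% at 3 h. In shoots the sums were 1.12 ± 0.0288% against 0.297 ± 0.0373% at 1 h and 2.04 ± 0.112% against 0.273 ± 0.0296% at 3 h. The citral and ethanol libraries did not overlap at these times, as the plot of summed shares by time shows. By 24 h the root sums were 1.12 ± 0.0209% with citral and 1.08 ± 0.105% with ethanol, within the spread, and the shoot sums 0.599 ± 0.122% and 0.341 ± 0.0166%.

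**Figure D1:**
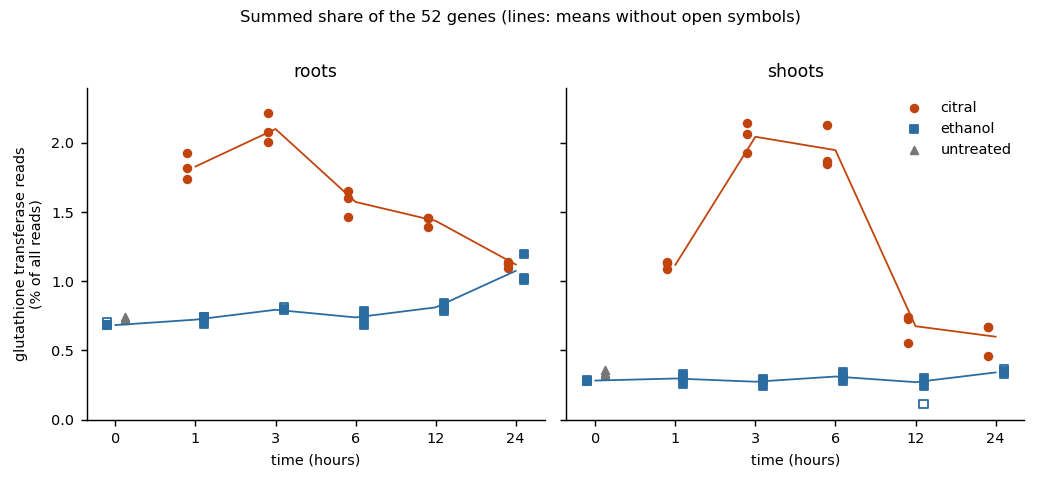
Summed share of the 52 GST genes in all reads of a library (y axis, percent) against hours of treatment (x axis), for roots (left) and shoots (right); each symbol is a library, open symbols are libraries under 0.5 M reads, and lines join the means without them. Citral libraries lie above ethanol libraries from 1 to 12 h in both organs, and at 24 h the root means are 1.12 and 1.08%.

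A single gene carried much of this sum. GSTU19, a main tau enzyme for conjugating foreign compounds and induced by herbicide safeners, made up 33.4 ± 0.256% of the family's reads in roots after 3 h of citral against 16.4 ± 2.44% with ethanol. In shoots at 3 h it made up 52.8 ± 1.01% with citral against 12.9 ± 1.93% with ethanol. Without it the rest of the family still summed to 2.11 times the ethanol level in roots and 4.04 times in shoots at 3 h. The summed tau level at 3 h was 5.11 times the ethanol level in roots and 17.9 times in shoots. For phi the ratio was 1.28 in roots and 3.27 in shoots, and for theta 0.669 in roots and 0.904 in shoots. These ratios of CPM carry no TMM scaling. On that scale the median log2 change of all loci at 3 h was -0.36 in roots and -0.18 in shoots. With TMM the theta median in shoots was 0.01 at 3 h, with 0 genes called.

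The comparison of citral with ethanol at each time asked which GST genes changed. More of them rose than fell at each time in both organs, except in roots at 1 h with scaling to total reads alone. In roots, 20 of 51 genes were higher and 9 lower at 1 h, beside 22.0% and 21.1% of all loci, but 16 were higher and 17 lower with scaling to total reads alone. At 3 h, 24 were higher and 15 lower (all loci 21.2% and 25.9%), and with total scaling 20 and 16. The counts were 26 and 11 at 6 h (22.9% and 25.6%), 25 and 9 at 12 h (17.8% and 18.1%) and 23 and 14 at 24 h (20.2% and 18.5%). Total scaling moved the median log2 change of all root loci to -0.23 at 1 h and -0.36 at 3 h, against -0.04 and -0.12 with TMM, and the share of called root loci that were higher to 29.8% at 1 h and 26.9% at 3 h, against 51.0% and 45.01%. In either direction, 43.1, 47.1, 48.6, 36 and 38.7% of all root loci were called from 1 to 24 h. The citral and ethanol libraries did not overlap for 36, 35, 39, 38 and 34 of the 51 genes, beside 56.3, 51.4, 54.2, 44.3 and 45.7% of all loci. The median over the root GST genes was 0.12, 0.46, 0.53, 0.33 and 0.23 in time order. Counts of higher genes include GSTU3 at each time in both organs and GSTF12 at 2 root times, which passed the filter there only through citral libraries.

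In shoots, 18 of 46 genes were higher and 4 lower at 1 h (all loci 11.7% and 9.02%), and 24 and 6 at 3 h (23.6% and 26.6%). The counts were 21 and 11 at 6 h (19.5% and 21.8%), 23 and 5 at 12 h (19.0% and 18.9%) and 16 and 5 at 24 h (15.3% and 18.6%). In either direction, 20.8, 50.3, 41.2, 37.9 and 33.9% of all shoot loci were called. The libraries did not overlap for 25, 33, 32, 22 and 26 of the 46 genes, beside 42.3, 60.0, 49.2, 29.9 and 38.0% of all loci. The median over the shoot GST genes was 0.33, 0.48, 0.64, 0.48 and 0.14 on the log2 scale, and that of all shoot loci lay between -0.08 and -0.02. Of the called shoot loci, 35.0% at 1 h and 36.6% at 3 h were higher with total scaling, against 56.5% and 47.0% with TMM, and the GST counts were then 18 and 5 and 23 and 8. With the authors' factors the share was 32.6% at 3 h and 33.5% at 6 h in shoots, with GST counts of 23 and 8 and of 21 and 12, and in roots 38.7% at 1 h and 39.1% at 24 h, with 18 and 12 and with 22 and 14. At 12 h the shoot calls rested on both deep ethanol libraries: without ethanol replicate 1, or without replicate 3, 1 GST gene was called. At 24 h, 13 were called without shoot ethanol replicate 1. Leaving out the 4 libraries under 0.5 M reads gave 20 and 9, 24 and 15, 27 and 11, 26 and 9 and 23 and 11 in roots, and 18 and 4, 24 and 7, 22 and 11, 23 and 5 and 16 and 6 in shoots.

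**Figure D2:**
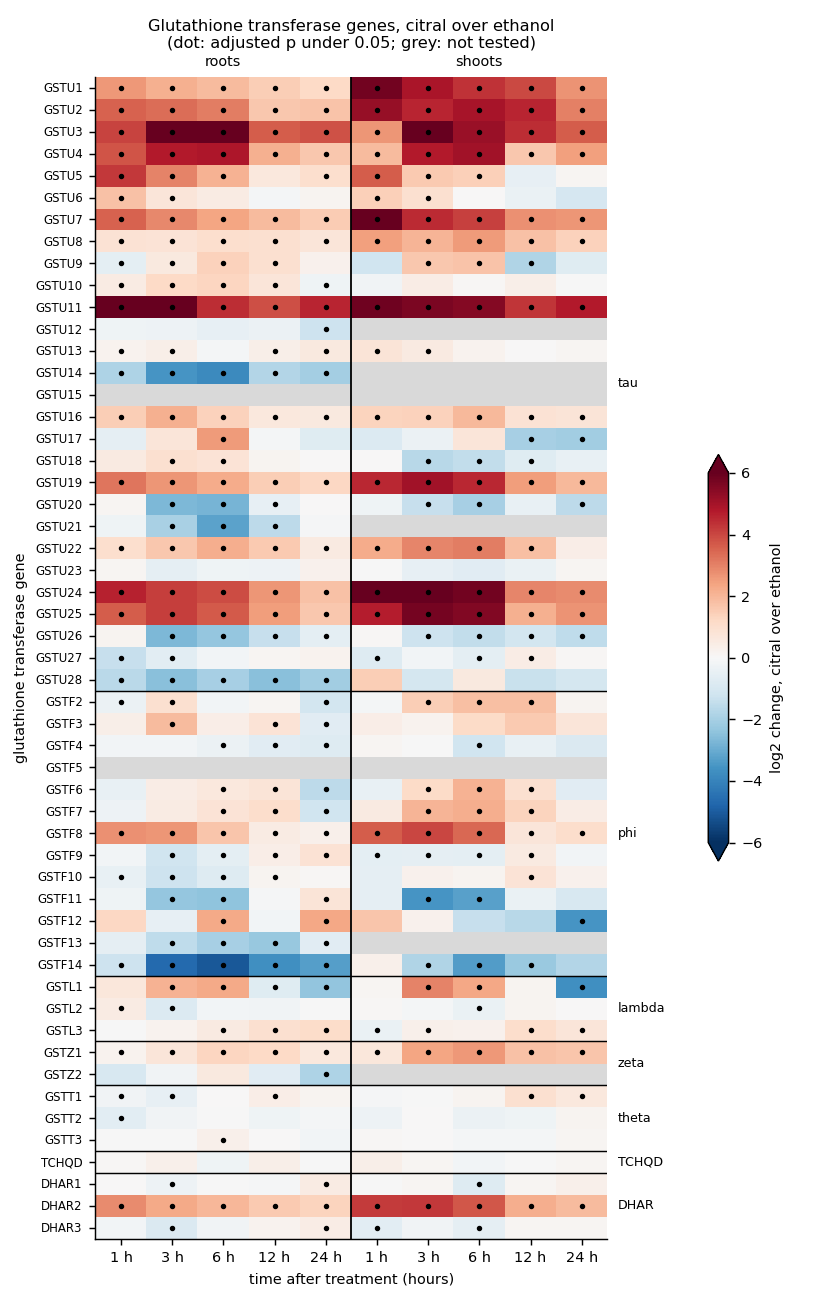
Log2 change of citral over ethanol (colour) for each GST gene (rows, by class) at 1, 3, 6, 12 and 24 h (columns) in roots (left) and shoots (right). Most of the large increases lie in the tau class, where 18 of 27 root genes were higher at 3 h, beside 21.2% of all root loci. The phi class holds GSTF14, at -5.09 in roots at 6 h.

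The classes differed in their counts. Of 27 tau genes in roots, 16, 18, 17, 15 and 14 were higher and 4, 6, 5, 5 and 5 lower from 1 to 24 h. Of 24 tau genes in shoots, 15, 16, 14, 13 and 11 were higher and 1, 3, 4, 4 and 3 lower. The phi class was mixed: of 12 genes in roots, 1, 3, 4, 6 and 4 were higher and 3, 5, 6, 3 and 7 lower, and of 11 in shoots, 1, 4, 4, 6 and 1 were higher and 1, 3, 4, 1 and 1 lower. Of all root loci, 22.0, 21.2, 22.9, 17.8 and 20.2% were higher and 21.1, 25.9, 25.6, 18.1 and 18.5% lower. Of all shoot loci, 11.7, 23.6, 19.5, 19.0 and 15.3% were higher and 9.02, 26.6, 21.8, 18.9 and 18.6% lower. The counts of lower tau genes were thus near or under what these shares give. In roots the tau median was 0.95 at 3 h on the log2 scale and the phi median -0.32.

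A set of 14 of the 46 genes tested in both organs was higher at all 5 times in both, beside 268 of 18672 loci (1.44%): GSTU1, GSTU2, GSTU3, GSTU4, GSTU7, GSTU8, GSTU11, GSTU16, GSTU19, GSTU24, GSTU25, GSTF8, GSTZ1 and DHAR2. Their median log2 change was 3.37, 2.77, 2.30, 1.59 and 1.42 in roots and 4.35, 4.65, 4.43, 2.35 and 2.56 in shoots, from 1 to 24 h. TGACG or CGTCA occurred in the windows of 300 bases of 8 of the 14 and of 13 of the other 39 genes, and CACGTG in 0 of the 14 and 7 of the 39. GSTU3 passed the filter only through citral libraries, so it had to differ. Without it 13 genes are left, with a median of 3.21, 2.66, 2.24, 1.57 and 1.32 in roots and 4.51, 4.55, 4.33, 2.20 and 2.46 in shoots, and TGACG or CGTCA in 7 of the 13. Over all 268 loci the median was 1.85, 2.07, 1.66, 1.24 and 0.96 in roots and 2.05, 2.76, 2.24, 1.41 and 1.67 in shoots. The set held 9 to 14 genes under the other ways of fitting. Leaving out shoot ethanol replicate 1 or 3 at 12 h ended the 12 h shoot call of all 14. Without shoot ethanol replicate 1 at 24 h, the 24 h calls of GSTU3, GSTU8, GSTU11, GSTU16, GSTU25 and GSTF8 ended, and without replicate 2 those of GSTU8 and GSTU25. Leaving out other single libraries ended the shoot calls of GSTU3 at 1 h, of GSTU11 and GSTF8 at 12 h and of GSTU8 at 24 h. In roots it ended the calls of GSTZ1 at 1 h, of GSTU16 at 12 and 24 h and of GSTF8 at 24 h.

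GSTU19 (AT1G78380) is the tau enzyme whose share of the sums is given above. In roots at 3 h it had 7351, 6691 and 7016 CPM with citral against 1401, 1430.1 and 1171 CPM with ethanol (log2 change 2.63 ± 0.10, adjusted p = 1.76e-20). In shoots at 3 h it had 11412, 10322 and 10669.8 CPM with citral against 358, 368 and 321 CPM with ethanol (5.06 ± 0.13, adjusted p = 1.04e-24). The groups were well apart in both organs. Over time the log2 change of GSTU19 was 3.21, 2.63, 2.24, 1.49 and 1.23 in roots and 4.51, 5.06, 4.52, 2.51 and 1.96 in shoots.

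GSTU24 and GSTU25, tau enzymes that conjugate the explosive trinitrotoluene, rose strongly as well. GSTU25 (AT1G17180) had 2611, 2294 and 2278 CPM with citral against 187, 157 and 156 CPM with ethanol in roots at 3 h (4.16 ± 0.15, adjusted p = 5.8e-20). In shoots at 3 h it had 225, 106 and 201 CPM with citral against 1.87, 4.76 and 4.17 CPM with ethanol (5.74 ± 0.31, adjusted p = 6.58e-15). GSTU24 (AT1G17170) had 2205, 1851 and 1904 CPM with citral against 89.6, 135 and 135 CPM with ethanol in roots at 3 h (4.14 ± 0.13, adjusted p = 1.04e-24). None of these groups overlapped. In shoots the log2 change of GSTU24 was 8.04, 6.39, 5.77, 2.95 and 2.85 from 1 to 24 h.

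**Figure D3:**
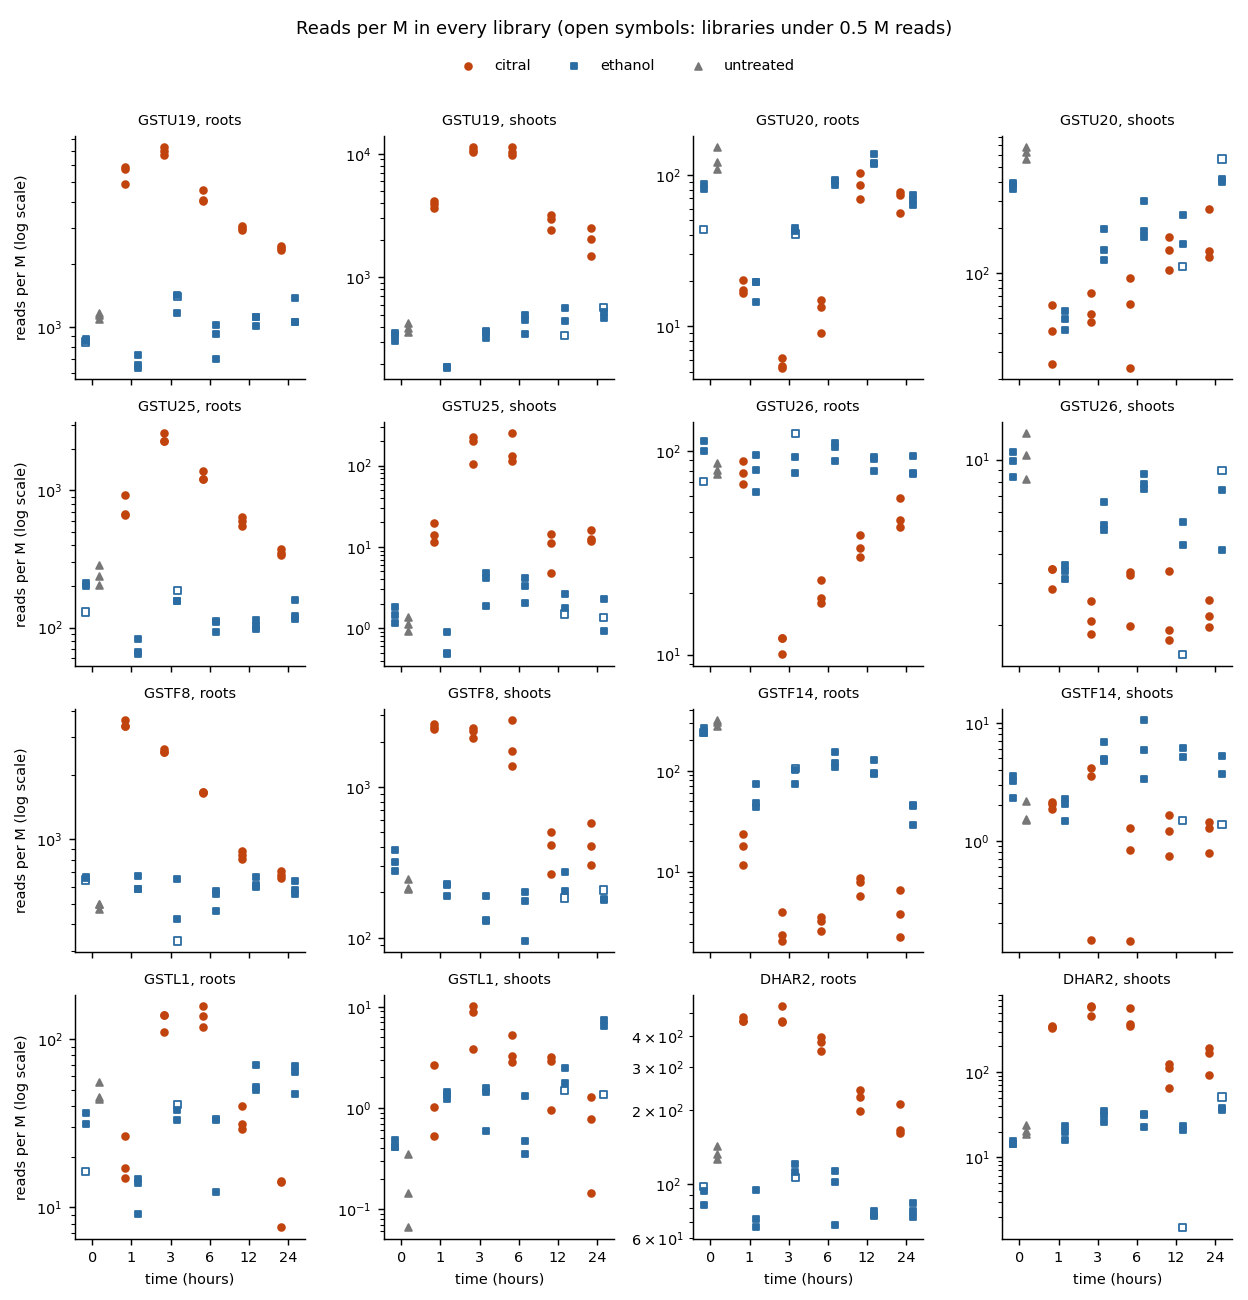
Reads per M in each library (y axis, log scale) of 8 GST genes against hours of treatment (x axis), in roots and in shoots; circles are citral, squares ethanol and triangles untreated libraries, and open symbols are libraries under 0.5 M reads. GSTU19 lies at 6691 to 7351 CPM in roots after 3 h of citral against 1171 to 1430 CPM with ethanol, whereas GSTF14 lies lower with citral at each time in roots.

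GSTU11 and GSTU4 started from few reads. GSTU11 (AT1G69930) had 78, 65.2 and 87.3 CPM with citral against 1.43, 0.805 and 0.973 CPM with ethanol in roots at 1 h (6.59 ± 0.23, adjusted p = 3.24e-25), and its root log2 change was 6.59, 5.97, 4.44, 3.87 and 4.56 over time. GSTU4 (AT2G29460) had 172, 123 and 144 CPM with citral against 4.7, 5.01 and 5.8 CPM with ethanol in roots at 6 h (4.86 ± 0.24, adjusted p = 1.57e-17), and its log2 change was 3.76, 4.74, 4.86, 2.15 and 1.60 in roots and 1.90, 4.75, 5.03, 1.62 and 2.46 in shoots. For GSTU3 the ethanol libraries were at the floor in roots at 3 h, so the ratio is a lower bound: it was at least 118-fold higher with citral, against 3 reads over the ethanol group. The same floor gave at least 40.9-fold in shoots at 6 h, 20.9-fold at 12 h and 16.5-fold at 24 h.

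GSTU1 and GSTU7, whose upstream sequences are given above and which were chosen after their values were seen, had log2 changes of 2.62, 2.12, 1.88, 1.47 and 1.20 and of 3.52, 2.89, 2.36, 1.91 and 1.52 in roots. In shoots the values were 5.81, 4.91, 4.33, 3.96 and 2.69 for GSTU1 and 6.01, 4.48, 4.08, 2.74 and 2.66 for GSTU7.

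The genes of other classes in this set included GSTF8 (AT2G47730), a phi gene widely used as a marker of early stress responses. It had 2333, 2120.2 and 2457 CPM with citral against 131, 189 and 129 CPM with ethanol in shoots at 3 h (4.0 ± 0.23, adjusted p = 2.59e-14), and its log2 change was 2.73, 2.66, 1.67, 0.50 and 0.32 in roots over time. DHAR2 (AT1G75270), a cytosolic dehydroascorbate reductase, had 531, 458 and 462 CPM with citral against 106, 120.1 and 111 CPM with ethanol in roots at 3 h (2.29 ± 0.14, adjusted p = 6.52e-16). In shoots it had 580.3, 460.4 and 594 CPM with citral against 31.6, 34.7 and 25.9 CPM with ethanol (4.25 ± 0.18, adjusted p = 9.06e-18). The groups did not overlap for either gene. GSTZ1 (AT2G02390), the maleylacetoacetate isomerase of tyrosine breakdown, had 388, 350.3 and 425 CPM with citral against 206, 165 and 157 CPM with ethanol in roots at 6 h (1.28 ± 0.07, adjusted p = 1.57e-17) and 205, 246 and 219.9 CPM with citral against 36.4, 34.3 and 36.2 CPM with ethanol in shoots (2.59 ± 0.13, adjusted p = 1.69e-16).

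Other tau and phi genes fell. GSTF14, GSTU14 and GSTU28 were lower at all 5 times in roots. The share of all root loci that were lower at all 5 times was not counted. GSTF14 (AT1G49860) had 2.57, 3.22 and 3.59 CPM with citral against 155, 109.8 and 119 CPM with ethanol in roots at 6 h (-5.09 ± 0.47, adjusted p = 4.52e-10), and its root changes were -1.24, -4.67, -5.09, -3.68 and -3.30. GSTU14 (AT1G27140) had 0.642, 1.29 and 0.652 CPM with citral against 9.76, 13.6 and 16.4 CPM with ethanol in roots at 6 h (-3.83 ± 0.40, adjusted p = 2.14e-10), where the citral values stand for few reads. GSTU28 fell by 1.60 to 2.52 on the log2 scale. For GSTF14 and GSTU14 every citral library lay under every ethanol library at 6 h.

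GSTU20 and GSTF11 both act in the synthesis of aliphatic glucosinolates, defence compounds of the cabbage family. GSTU20 (AT1G78370) had 8.98, 14.8 and 13.4 CPM with citral against 90.7, 92.2 and 85.8 CPM with ethanol in roots at 6 h (-2.80 ± 0.20, adjusted p = 5.46e-14). GSTF11 (AT3G03190) had 2.57, 3.86 and 4.57 CPM with citral against 21.3, 21.2 and 21.6 CPM with ethanol in roots at 6 h (-2.41 ± 0.24, adjusted p = 4.96e-11). In roots the change of GSTU20 over time was 0.12, -2.68, -2.80, -0.48 and 0.04 and that of GSTF11 -0.24, -2.34, -2.41, -0.05 and 0.76, so both were lower at 3 and 6 h, and GSTF11 was higher at 24 h. In shoots the changes were -0.26, -1.37, -1.98, -0.44 and -1.55 for GSTU20 and -0.52, -3.54, -3.26, -0.38 and -0.97 for GSTF11.

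Among the other phi genes, GSTF2 (AT4G02520), which binds small molecules such as camalexin, had 850.0, 736 and 855 CPM with citral against 423, 469 and 556 CPM with ethanol in roots at 3 h (0.96 ± 0.18, adjusted p = 0.000102) and 454, 451 and 483 CPM with citral against 1053, 1010.5 and 1345 CPM with ethanol at 24 h (-1.11 ± 0.13, adjusted p = 1.26e-07). It rose at 3 h and fell at 24 h in roots. GSTF6, which acts in camalexin synthesis, had log2 changes of -0.43, 0.46, 0.63, 0.76 and -1.59 in roots and -0.45, 1.15, 2.10, 0.95 and -0.70 in shoots, and its tandem neighbour GSTF7 had -0.31, 0.49, 0.80, 1.03 and -1.20 and 0.54, 2.06, 2.20, 1.32 and 0.43. Both were higher at 6 and 12 h and lower at 24 h in roots, and higher at 3, 6 and 12 h in shoots. The coding sequences of GSTF6 and GSTF7 are 94.3% identical and those of GSTF2 and GSTF3 94.5%, so reads may be shared within each pair. GSTF9, with the highest level per kb in untreated roots, had log2 changes of -0.16, -1.19, -0.58, 0.42 and 0.85 in roots, lower at 3 and 6 h and higher at 12 and 24 h.

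GSTF12 had few reads in roots, with 5.78, 4.51 and 1.96 CPM with citral against 0.15, 0.716 and 1.1 CPM with ethanol at 6 h, where 1 ethanol library was at the floor. It passed the root filter only through citral libraries (5 citral libraries and 1 control library of at least 1 CPM), so its root change is given without a test here. In the counts of higher root and phi genes and in the F test between organs it is included. In shoots at 24 h it had 0.233, 0.484 and 4.59 CPM with citral against 10.6, 8.28 and 9.02 CPM with ethanol (-3.56 ± 1.01, adjusted p = 0.00721). Each citral library was under each ethanol library there, and 1 citral library was at the floor.

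The lambda genes followed different courses. GSTL1 had 136, 118 and 156 CPM with citral against 12.3, 33.6 and 33 CPM with ethanol in roots at 6 h (2.27 ± 0.20, adjusted p = 1.74e-10) and 14.1, 14.3 and 7.58 CPM with citral against 68.6, 63.1 and 47.1 CPM with ethanol at 24 h (-2.36 ± 0.38, adjusted p = 1.5e-05). The citral libraries were thus above the ethanol libraries at 6 h and under them at 24 h. GSTL3 had log2 changes of -0.04, 0.19, 0.53, 0.96 and 1.09 in roots and -0.41, 0.31, 0.26, 1.05 and 0.73 in shoots, and rose at 12 and 24 h in both organs. GSTL2 had 0.50, -0.80, -0.17, -0.21 and -0.0031 in roots and 0.05, -0.13, -0.38, 0.15 and 0.03 in shoots.

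The theta genes, peroxisomal enzymes, had smaller changes. Over all times their log2 changes lay between -0.64 and 0.41 in roots. GSTT1 was the theta gene with the largest change in shoots, a log2 change of 0.95 ± 0.11, adjusted p = 2.39e-08 at 12 h. TCHQD was called at no time in either organ, with log2 changes of 0.06, 0.28, -0.24, 0.36 and -0.03 in roots and 0.33, 0.12, -0.15, -0.04 and 0.13 in shoots. GSTU23 was the other gene without a call. DHAR1 had log2 changes of 0.03, -0.30, -0.03, -0.06 and 0.50 in roots and DHAR3 of -0.18, -0.88, -0.21, 0.23 and 0.45. In roots both were lower at 3 h, and the 3 DHAR genes were higher together at 24 h.

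Many GST genes lie in tandem: 33 of the 53 form 11 clusters. GSTU24, GSTU25 and GSTU26 lie on chromosome 1 between 5869543 and 5876620, a stretch of 7.08 kb. GSTU26 (AT1G17190) had 12.1, 10 and 12 CPM with citral against 122, 92.9 and 78.1 CPM with ethanol in roots at 3 h (-2.69 ± 0.23, adjusted p = 1.68e-12), with no overlap, while GSTU24 and GSTU25 rose by 4.14 and 4.16. The span within this cluster was 6.85 in roots and 7.64 in shoots at 3 h on the log2 scale. The coding sequence of GSTU25 is 79.4% identical to that of GSTU24 and 70.8% to that of GSTU26.

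The cluster of GSTU6, GSTU5, GSTU4, GSTU3, GSTU2 and GSTU1 lies on chromosome 2, 12619630 to 12632538. It moved in 1 direction at first: all 6 genes were higher at 1 and at 3 h in both organs. Among them, GSTU3 passed the filter only through citral libraries, so it had to differ. Its shoot call at 1 h also ended when certain single libraries were left out. At 12 h GSTU5 and GSTU6 were called in neither organ and had root changes of 0.64 and -0.11. On chromosome 1, from 29467412 to 29488007, GSTU19 and GSTU22 rose while their neighbours GSTU20 and, in roots, GSTU21 fell at 3 and 6 h. GSTU11 rose by 6.59 in roots at 1 h, and GSTU12 beside it had a log2 change of -0.28 without a call. From 1 to 24 h, genes called in opposite directions occurred within 1, 3, 3, 5 and 5 of 11 clusters in roots. In shoots they occurred within 0, 2, 3, 1 and 3 of 8 clusters. Among all root loci, 22.0, 21.2, 22.9, 17.8 and 20.2% were higher and 21.1, 25.9, 25.6, 18.1 and 18.5% lower. Among all shoot loci, 11.7, 23.6, 19.5, 19.0 and 15.3% were higher and 9.02, 26.6, 21.8, 18.9 and 18.6% lower. Whether other neighbouring genes were called in opposite directions as often was not tested.

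**Figure D4:**
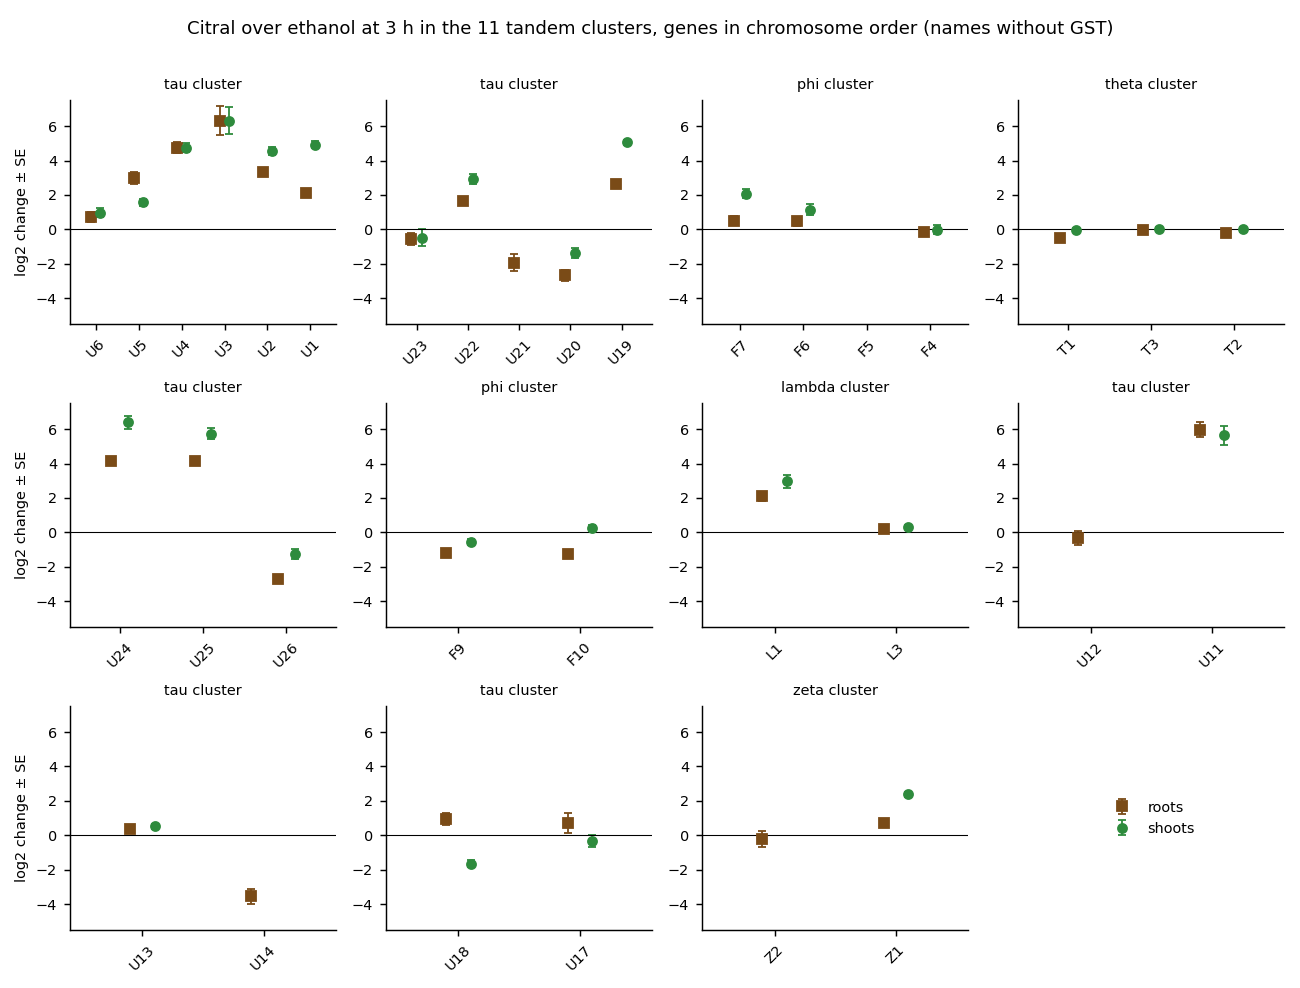
Log2 change of citral over ethanol at 3 h with its SE (y axis) for the genes of the 11 tandem clusters (x axis, in chromosome order, names without GST), roots as squares and shoots as circles; untested genes have no symbol. GSTU24 and GSTU25 lie above 0 and GSTU26 below it at -2.69 in roots, and the value of GSTU3 in roots is set against ethanol libraries at the floor.

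GSTU17 and GSTU18 overlap on the same strand, so their reads may be shared. GSTU17, which acts in light and drought responses, had log2 changes of -0.55, 0.72, 2.57, -0.11 and -0.72 in roots and -0.80, -0.33, 0.71, -1.97 and -2.07 in shoots. GSTU18 had log2 changes of 0.53, 0.95, 0.80, 0.14 and 0.03 in roots and 0.01, -1.65, -1.47, -0.72 and -0.46 in shoots, higher in roots and lower in shoots at 3 and 6 h. In all, 16 GST genes overlap another annotated gene, 13 of them on the opposite strand, and no source used here says whether counting used strand.

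The response to citral differed between the organs for 38 of 51 genes (F test over the 5 times, beside 63.2% of all loci). The 38 include GSTF12, which passed the root filter only through citral libraries. They also include GSTU14, GSTU21 and GSTF13, which did not pass the shoot filter, so their shoot change rests on few reads. Of the 46 genes tested in both organs, 35 were called. Of the 14 genes higher throughout, 11 were called, and of the 268 such loci 90.7%. Their change was smaller in roots than in shoots for 10, 11, 13, 12 and 13 of the 14 from 1 to 24 h, and without GSTU3 for 10, 11, 13, 11 and 13 of 13. Of the 268 loci it was smaller in roots for 57.8, 74.3, 73.9, 67.5 and 82.5%, and of all 18672 loci for 52.1, 55.2, 50.3, 51.3 and 49.0%. GSTU19 had an adjusted p of 3.32e-25, GSTU1 of 2.92e-25 and DHAR2 of 5.63e-14, while GSTU3, GSTU11 and GSTU16 were not called, at 0.584, 0.68 and 0.114. Without replicate 1 of each group, 24 GST genes were called.

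The organ difference in citral change was set beside the organ difference without treatment. Over the 46 genes tested in both organs, the untreated root minus shoot difference and the root minus shoot difference in citral change had a Pearson correlation of -0.416, -0.529, -0.603, -0.390 and -0.547 from 1 to 24 h, and a Spearman correlation of -0.343, -0.518, -0.536, -0.406 and -0.502. Without GSTF12 and GSTU3, which passed a filter only through citral libraries, the Pearson values over 44 genes were -0.461, -0.575, -0.533, -0.329 and -0.446. Over the 18672 loci they were -0.230, -0.245, -0.253, 0.009 and -0.071. These are descriptions across genes that share their libraries. Of the 32 genes with the higher untreated level in roots, 19, 28, 24, 25 and 23 had a smaller citral change in roots, beside 56.7, 63.2, 61.3, 50.5 and 49.1% of such loci. Of the 14 with the lower untreated level, 9, 6, 10, 8 and 8 had a larger one, beside 4679, 4743, 5469, 4228 and 4507 of 8828 such loci.

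**Figure D5:**
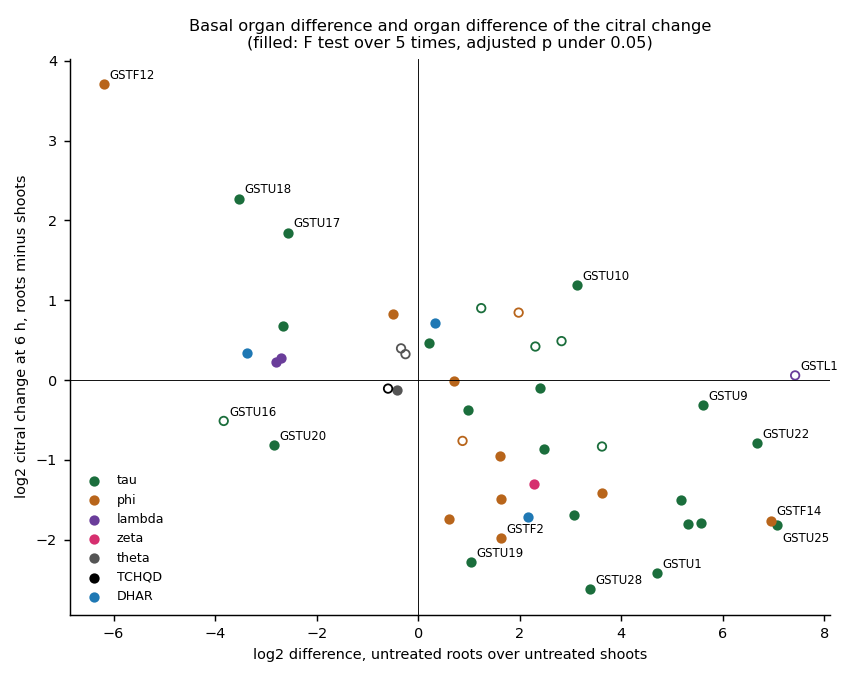
Untreated level in roots minus shoots (x axis, log2) against the log2 citral change at 6 h in roots minus shoots (y axis), a point for each of 46 GST genes, coloured by class and filled where the F test called the gene. GSTU25, GSTF14 and GSTU1 lie at the lower right and GSTF12 at the upper left, with a Pearson correlation of -0.603 across genes, and -0.533 without GSTF12 and GSTU3.

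The response at 24 h was compared with that at 3 h. In roots 12 of 51 genes had a higher change at 24 h and 21 a lower one (all loci 20.6% and 17.1%), with a median difference of -0.55 on the log2 scale. In shoots 4 of 46 were higher and 20 lower (11.8% and 13.5%), with a median of -0.67. Of the called shoot loci 46.7% were higher at 24 h with TMM, 61.9% with total scaling and 71.2% with the authors' factors, and the GST counts were then 5 and 19 and 5 and 16. Of the called root loci 54.7% were higher with TMM and 68.7% with total scaling, with GST counts then of 14 and 19. The shoot count of 24 became 12 without shoot ethanol replicate 1 at 24 h.

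The ethanol and untreated plants at 0 h were compared as controls. In roots 8 of 51 genes were higher with ethanol and 12 lower (all loci 14.9% and 11.1%), and in shoots 1 of 46 was higher and 12 lower (10.2% and 12.2%). Of the called root loci 57.2% were higher with TMM, 41.6% with total scaling, 44.9% with the authors' factors and 45.01% with quantile normalization, and the GST counts were then 8 and 16, 8 and 13, and 7 and 16. Of the called shoot loci 45.7% were higher with TMM and 54.8% with total scaling, with GST counts then of 1 and 11. GSTF12 had 1.94, 1.44 and 2.96 CPM in ethanol shoots against 8.65, 25.6 and 8.97 CPM in untreated shoots (-2.25 ± 0.36, adjusted p = 4.73e-05). These counts were among the least stable: without ethanol replicate 3 of the organ, 4 genes were called in roots and 4 in shoots. Within the ethanol groups, 45 GST genes differed over time in roots (66.7% of all loci) and 42 in shoots (88.3%), so each citral group was set against ethanol of its own time.

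Of the genes that make, recycle, move or use glutathione, 26 were listed and 24 tested in each organ. From 1 to 24 h, 11, 11, 11, 12 and 11 of 24 were higher in roots, beside 22.0, 21.2, 22.9, 17.8 and 20.2% of all loci, and 7, 7, 4, 3 and 4 lower, beside 21.1, 25.9, 25.6, 18.1 and 18.5%. In shoots 9, 14, 13, 13 and 11 of 24 were higher, beside 11.7, 23.6, 19.5, 19.0 and 15.3%, and 1, 0, 1, 5 and 4 lower, beside 9.02, 26.6, 21.8, 18.9 and 18.6%. The counts of lower genes were thus near or under what these shares give. GSH1, which makes the first step of glutathione synthesis, the vacuolar conjugate pumps ABCC1 and ABCC2, and the peroxidase GPX6 were higher at all 5 times in both organs. ABCC2 had 887, 855 and 918 CPM with citral against 163, 183 and 187 CPM with ethanol in roots at 3 h (2.51 ± 0.09, adjusted p = 4.26e-23). In shoots it had 1092, 995 and 1094 CPM with citral against 75.2, 73.2 and 56.9 CPM with ethanol (4.06 ± 0.15, adjusted p = 3.8e-20). The groups did not overlap. Glutathione reductase GR1 had log2 changes of 0.75, 1.30, 1.87, 0.24 and 0.01 in roots and 0.49, 1.16, 1.94, -0.56 and -0.55 in shoots, higher at 1 to 6 h in both organs and lower at 12 and 24 h in shoots.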

How the data were processed

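RNA of 72 libraries was measured. The deposited table holds a whole-number score per locus, which the authors scaled by TMM per the file name, against TAIR 10 per the submitters' processing notes. The kit was TruSeq per the labels' protocols. For the aligner, the read counter and the strand setting, nothing is given in the sources used here. The values proved to be reads times 1 factor per library (0.6655 to 1.311), with a floor of 1, so reads were recovered: at least 99.0% of values up to 150 fell on the grid of whole reads, and a value of 1 was taken as 0.5 read. Reads ran from 0.185 to 20.6 M per library.

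Loci with 1 CPM in 3 libraries were kept. Own TMM factors (loci of at least 10 CPM, trims of 30% and 5%) and limma 3.58.1 (R 4.3.3, voom with library quality weights, group means per organ, robust moderation) gave log2 changes, with Benjamini-Hochberg adjustment over all loci and a threshold of 0.05. Tests keep the libraries under 0.5 M with their weights. Comparisons between organs used all 72 libraries and 21096 loci. The fit was tested on simulated data. Replicate pairs (72) differed beyond sampling noise, with a lowest chi-square per locus of 1.27, and 0 were identical. Replicates carry no number in the labels and were numbered in accession order. Gene positions, promoters and coding identity come from RefSeq TAIR10.1 with biopython 1.88, and coding identity stands in for protein identity. Tables were handled with Python 3.11.15, numpy 2.4.6 and pandas 2.3.3, and figures with matplotlib 3.10.9.

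Genes given with values per library were, for each class and organ, up to 3 called genes with the largest change at the time with most calls (3 h in roots, 6 h in shoots), the highest and lowest of each tandem cluster then, and a list of genes with known roles. The members and lists were chosen with earlier results of these data known. Alternatives were other scalings, other filters, no weights, limma-trend, fits on the compared groups alone, and leaving out libraries. Leaving out GSTU3 and GSTF12 was added after seeing the data. Values near the floor rest on few reads, and floors cover counting error only.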

Additional observations from a re-analysis of the deposited data

Results flagged for a closer look

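By the F test over 5 times, the response to citral differed between roots and shoots for 38 of 51 GST genes. The same test called 63.2% of all loci. Of the 38, 3 did not pass the shoot filter, and of the 46 genes tested in both organs 35 were called. Dropping a replicate of each group left 24 to 27 GST genes called. Some genes were called in opposite directions in the organs at the same time, and the F test over the 5 times called their difference. The log2 change, root minus shoot, was as follows: GSTU9 at 12 h with 2.74, GSTU18 with 2.62 at 3 h and 2.27 at 6 h, and GSTF12 at 24 h with 5.73. GSTF12 had few root reads and passed the root filter only through citral libraries, so its root call does not stand apart from that filter.

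Other genes were called in opposite directions at 24 and 3 h, and the change at 24 h minus that at 3 h was called. That difference was called for 37.7% of all root loci and 25.3% of all shoot loci. How many of all loci were called in opposite directions, between these times or between the organs, was not counted. The listed genes can thus not be said to stand out by it. The cases are given by organ. In shoots GSTL1 was called higher at 3 h and lower at 24 h, with a difference of -6.62 on the log2 scale. In roots the difference was -4.44 for GSTL1, -2.58 for GSTF3, -2.07 for GSTF2 and -1.49 for GSTU10, which were higher at 3 h and lower at 24 h. It was 3.10 for GSTF11, 2.04 for GSTF9, 1.33 for DHAR3 and 0.80 for DHAR1, which were lower at 3 h and higher at 24 h.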

How the results depend on the processing

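Of 291 recomputed counts of called GST genes, 273 stayed within 1.5 times the reported count and 18 did not. Ethanol against untreated shoots at 0 h (13 genes) gave 5 without library weights and 1 and 0 with limma-trend at pseudocounts of 0.5 and 0.1 CPM, and for roots (20 genes) limma-trend gave 13 with both. The organ difference (38) became 24 and the 24 h against 3 h comparison in shoots (24) became 11 and 10 with limma-trend. Leaving out 1 library in turn gave 4 to 21 calls at 0 h in roots and 4 to 12 in shoots, 12 to 24 for 24 h against 3 h in shoots, 1 to 29 in shoots at 12 h (28 reported), 13 to 22 in shoots at 24 h (21), and, dropping a replicate of each group, 24 to 27 for the organ difference and 21 to 44 for root ethanol over time (45). Without shoot ethanol replicate 1 at 12 h the changes of GSTU3, GSTU11, GSTF8 and GSTF10 turned to -0.26, -0.26, -0.80 and -0.74, and without replicate 3 those of GSTU3, GSTF8 and GSTF10 to -0.17, -0.78 and -0.69, leaving 1 deep library beside the library under 0.5 M; without 1 citral library instead they reached at most 5.16, 4.73, 0.92 and 0.91. GSTU13 in roots at 1 h turned to -0.0155 with quantile normalization and DHAR3 in roots at 3 h to 0.0302 with limma-trend at 0.1 CPM; the cause was not tested. Of 211 named changes, 133 were called under every alternative, 78 lost the call at least once and 6 reversed. No paired analysis was possible because the labels give no replicate numbers. Citral libraries are shallower than most controls, so low genes are measured with few reads there.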
